A study of Mus musculus with 2 samples.

Results

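Immediate early genes of the AP-1 and KLF families were described in differentiated female germline stem cells (FGSCs) of the mouse. The 10 genes, chosen by symbol, were Fos, Fosb, Fosl2, Jun, Junb, Jund, Egr1, Atf3, Klf4 and Klf6, out of 55341 gene symbols in the GENCODE M21 annotation of GRCm38 (mm10). Counts of all IDs of a gene, Ensembl transcripts and protein accessions, were summed. For Jun, Junb, Egr1 and Klf6 the accession that carries nearly all counts was tied to the gene only by its place in the row order of the files. RNA-seq comprised 2 libraries of the same condition, replicates 1 and 2, each from 5 to 8 cells. FGSCs of CD-1 females, labelled as at premeiotic interphase, had been detached with trypsin and kept for 3 days in medium with 10 µM retinoic acid and 10 ng/mL BMP4, without GDNF, EGF and LIF, on granulosa cells, the somatic cells of the ovarian follicle. Before that, the paper cultured FGSCs on STO feeder cells, which derive from mouse embryos. No untreated FGSCs were analysed here, so the values are levels in each library and show no induction or loss.

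AP-1 is a dimeric transcription factor built from Fos, Jun and ATF proteins, which pair through a leucine zipper and bind DNA through an adjoining basic region. Immediate early genes are transcribed within minutes of a signal such as a growth factor or of stress, without new protein synthesis, and their mRNAs are short-lived. EGR1 and the KLF proteins bind GC-rich promoter DNA through zinc fingers, and KLF4 is also known as a pluripotency factor.

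Promoters of the 3 AP-1 genes with the highest levels below are shown because signals reach such genes through short elements just ahead of the transcription start. Sequences are the 250 bases before the RefSeq start in GRCm38.p6, and the windows are chr8:84978749-84978998 (minus strand) for Junb, chr4:95052223-95052472 (minus strand) for Jun and chr12:85473640-85473889 (plus strand) for Fos. Capitals mark TGACG, the core of the cAMP response element, TGACNTCA, a form of the element bound by ATF and Jun dimers, and TATAA, on either strand.
Junb: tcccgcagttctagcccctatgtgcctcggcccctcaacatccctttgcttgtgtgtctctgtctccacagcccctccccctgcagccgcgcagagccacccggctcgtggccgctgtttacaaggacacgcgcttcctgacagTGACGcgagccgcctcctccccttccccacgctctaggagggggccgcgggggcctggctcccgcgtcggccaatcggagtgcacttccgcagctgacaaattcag
Jun: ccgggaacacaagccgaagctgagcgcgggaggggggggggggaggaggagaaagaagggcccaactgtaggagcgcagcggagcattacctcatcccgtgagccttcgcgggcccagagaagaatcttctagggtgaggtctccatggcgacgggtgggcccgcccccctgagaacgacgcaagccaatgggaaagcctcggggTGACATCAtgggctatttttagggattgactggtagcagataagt
Fos: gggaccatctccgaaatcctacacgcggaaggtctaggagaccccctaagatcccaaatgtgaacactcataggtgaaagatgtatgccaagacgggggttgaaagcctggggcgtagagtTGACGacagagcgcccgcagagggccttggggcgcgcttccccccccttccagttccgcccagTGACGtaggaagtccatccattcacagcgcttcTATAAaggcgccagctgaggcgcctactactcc
The first base of TGACNTCA in Jun lay 45 bases before the start, TGACG began 106 bases before it in Junb, and Fos held TGACG at 129 and 66 bases and TATAA at 33 bases before it. Of the 10 genes, 9 had a window in the RefSeq table, and Egr1 did not. TGACG occurred in 5 of the 9 windows, those of Atf3, Fos, Fosb, Junb and Klf4, and in 17.8% of all 32851 promoter windows of this length. TGACNTCA, which contains TGACG where N is G, occurred in the windows of Jun and Klf6 and in 7.49% of all windows, whereas TGACTCA, the usual AP-1 site, occurred in 0 of the 9 and in 4.46% of all. A match describes these letters and does not show binding.

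Depth set what either library could show. Replicate 1 held 1517151 counts and replicate 2 held 12442, a ratio of 122, so that 1 count stood for 0.659 CPM (counts per 1000000 counts) in replicate 1 and 80.4 CPM in replicate 2. The 3 counts taken as the smallest shown level were 1.98 CPM and 241 CPM. Intervals are exact 95% Clopper-Pearson intervals, which cover counting error only, since PCR copies of a few cells' cDNA are not independent molecules. Of 6 germ cell markers (Ddx4, Dazl, Pou5f1, Dppa3, Stra8 and Sycp3), 0 had a count in either library, so the labelled cell type was not seen in these markers. Among the 13664 protein-coding genes compared, 52.6% were at 0 in replicate 1 and 14.1% had any count in replicate 2. The zeros alone therefore do not show that germ cells were absent. Only 254 of the 3014 exonic bases of Ddx4 belong to a single ID. This matters because featureCounts by default leaves out reads that overlap several IDs, and the setting used is not stated. Bases of a single ID are called countable here. All 1803 bases of Stra8 and all 892 of Dppa3 are countable, and 1931 of 2248 of Pou5f1. For Dazl 881 of 3820 and for Sycp3 604 of 1264 are countable. The paper detected Stra8 and Sycp3 in differentiated FGSCs by RT-PCR, and Stra8 also by immunofluorescence, whereas both were at 0 here. Targeted amplification and protein staining are measures unlike counts from 5 to 8 cells, so these zeros do not contradict the paper. At least 3 counts were reached by 36.1% of the protein-coding genes in replicate 1 and by 4.23% in replicate 2. Fibroblast markers reached 3 counts for 5 of 6 genes in replicate 1, with a sum of 2885 CPM and Thy1 at 1 count. In replicate 2, 2 of 6 did so, with 884 CPM. Granulosa cell markers reached 3 counts for 2 of 6 genes in replicate 1, Kitl and Fst, with a sum of 449.5 CPM, and for 0 of 6 in replicate 2, with 241 CPM; Foxl2, Amh and Cyp19a1 were at 0 in both. The part of such cells in the values below was not tested, and fewer cells of a type cannot be told apart from less RNA per cell.

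All 10 genes had at least 3 counts in replicate 1, as did 36.1% of the 13664 protein-coding genes compared. Together they held 11650 counts, which is 7679 CPM (95% interval 7541 to 7819) or 0.768% of the library. Junb alone held 6330 of these counts, and Junb, Jun, Egr1 and Fos held 91.6%. At least 366 counts, the number that scales to 3 counts at the depth of replicate 2, were found for 5 of the 10 genes, against 3.81% of the protein-coding genes. In replicate 2, the genes held 4 counts, 3 on Egr1 and 1 on Fos, or 321 CPM (87.6 to 823). Egr1 was thus the only one of the 10 at 3 counts there, a level reached by 4.23% of the protein-coding genes. Any count at all was found for 2 of the 10, against 14.1% of the protein-coding genes. The plot of the level by library shows both libraries on 1 scale.

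**Figure D1:**
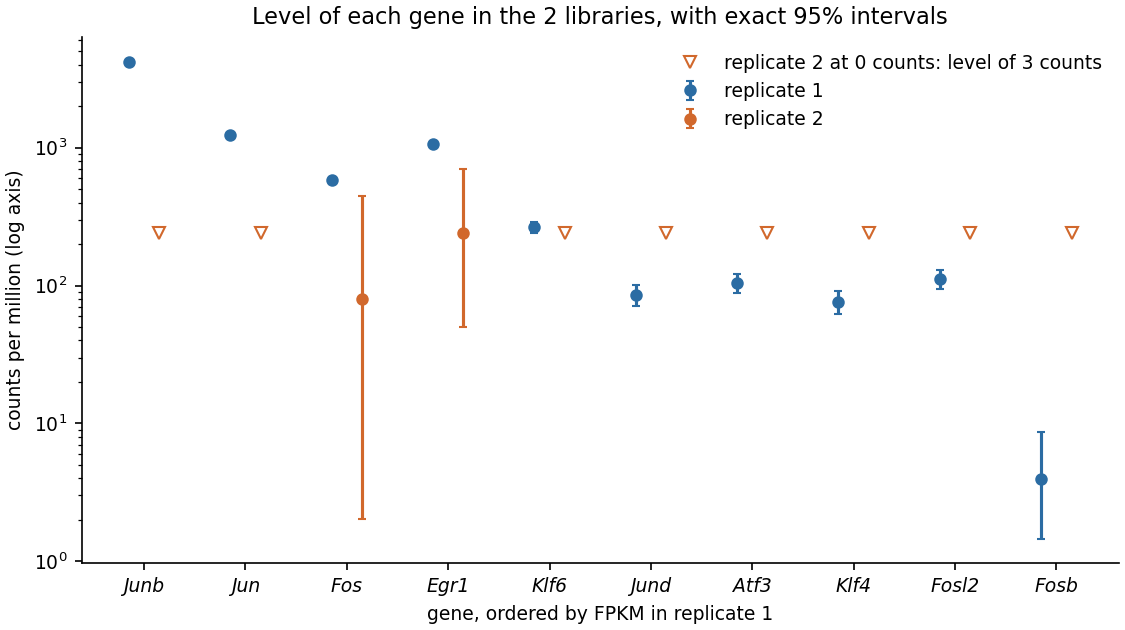
Level of each gene in CPM on a log axis, with exact 95% intervals for counting error, in replicate 1 (blue) and replicate 2 (orange); open triangles mark genes at 0 counts in replicate 2, drawn at the 241 CPM that 3 counts stand for. Junb, Jun, Egr1 and Fos in replicate 1 lie above that level and Klf6 lies just above it at 264 CPM, while the other 5 genes lie below it.

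Among the Jun subunits, which can pair with one another as well as with Fos proteins, Junb (chromosome 8, 84974484 to 84978718, minus strand) had 6330 counts in replicate 1 and 0 in replicate 2. Of these, 6325 were on the accession tied to it and 5 on a non-coding transcript that lies downstream of the coding exon. Jun (chromosome 4, 95049034 to 95052222, minus strand), the c-Jun gene, had 1859 counts in replicate 1 and 0 in replicate 2. Jund (chromosome 8, 70698949 to 70700616, plus strand), a Jun protein known for steady expression in many cells, had 129 and 0 counts. All 3 Jun genes were therefore counted in replicate 1 only, where they made up 71.4% of the sum over the 10 genes, and the interval of a count of 0 in replicate 2 reaches 296 CPM. Per kilobase of exons and 1000000 counts (FPKM), the level in replicate 1 was 1813 for Junb (1769 to 1858), 384 for Jun (367 to 402) and 51.0 for Jund (42.6 to 60.6). The intervals did not overlap, and Junb lay 4.72-fold above Jun. Junb ranked 18 by FPKM among the 13664 protein-coding genes and Jun ranked 94. These ranks use all exonic bases. If reads on shared bases were left out, they favour genes with mostly countable bases, such as Junb (92.5%) and Jun (92.7%).

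Each coding transcript of Jun, Junb and Jund is a single exon, so a read from spliced mRNA looks the same as one from genomic DNA or unspliced RNA. The other 7 genes have introns, and 4 of their listed transcripts are annotated as retained introns, with 5702 exonic bases that belong to no other ID. These 4 IDs held 6 counts in replicate 1, all on Fosb, and 0 in replicate 2. Transcripts of this class, summed over all genes, made up 1.51% of replicate 1 and 14.6% of replicate 2.
Jun shares 232 exonic bases with the antisense gene Junos, and Jund 877 of its 1668 with the antisense gene Gm11175. Junb shares 173 with Prdx2 on the opposite strand, all in its non-coding transcript with 5 counts. All 1809 bases of its coding exon are its own. Smart-seq2 cDNA does not keep the strand of the RNA, so reads on shared bases cannot be told apart. Junos had 3 counts, Prdx2 had 5 and Gm11175 had 0 in replicate 1. Per kilobase of its 791 countable bases, the FPKM of Jund was 107 instead of 51.0.

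Fos proteins pair only with other AP-1 partners such as Jun and not with themselves. Fos (chromosome 12, 85473890 to 85477273, plus strand), the classical immediate early gene, had 877 counts in replicate 1 and 1 in replicate 2, all on its protein accession. Its 3 non-coding transcripts were listed at 0, but only 115 of their bases are countable. Fosl2 (chromosome 5, 32135801 to 32157842, plus strand), which encodes FRA2, had 168 and 0 counts. The FPKM in replicate 1 was 246 for Fos (230 to 263) and 11.4 for Fosl2 (9.78 to 13.3), so these intervals stood apart too. All 168 counts of Fosl2 were on its protein accession, which has 4501 countable bases. Its length also includes 2839 and 304 countable bases of retained-intron transcripts at 0 counts, which lowers its FPKM.
Fosb (chromosome 7, 19302696 to 19310051, minus strand) had 6 counts in replicate 1 and 0 in replicate 2. All 6 were on a retained-intron transcript, and the 6 protein accessions of Fosb were at 0 in both libraries. The 6 coding transcripts overlap so far that, of the 3782 bases of the longest, 10 belong to it alone, and the other 5 have none. If reads on shared bases were left out, the zeros of the coding transcripts do not measure Fosb mRNA. The FPKM of Fosb was 0.633 (0.232 to 1.38) per kilobase of all 6243 exonic bases and 1.60 per kilobase of its 2471 countable bases. Of these countable bases, 2461 belong to the retained intron, which holds all of its counts. Fosb is for this reason not ranked against the others here.

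Egr1 (chromosome 18, 34859823 to 34864984, plus strand), a zinc finger factor induced through serum response elements, had 1609 counts in replicate 1 and 3 in replicate 2, more there than any other of the 10 genes. All 4484 of its exonic bases are countable. Its FPKM was 237 in replicate 1 (225 to 248) and 53.8 in replicate 2 (11.1 to 157). In replicate 1 the interval overlapped that of Fos, so the order of Fos and Egr1 was not resolved per kilobase of all exons. Per kilobase of countable bases, Fos was at 387 and Egr1 at 237.
Atf3 (chromosome 1, 191170296 to 191218039, minus strand), an ATF protein induced by many stresses, had 157 counts in replicate 1 and 0 in replicate 2. Its FPKM in replicate 1 was 48.0 (40.8 to 56.2), which overlapped that of Jund.

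Both KLF genes were counted in replicate 1 only. Klf6 (chromosome 13, 5861482 to 5870394, plus strand), a widely expressed zinc finger factor that responds to injury, had 400 counts, 396 on 1 accession and 4 on the other. Klf4 (chromosome 4, 55527143 to 55532466, minus strand) had 115 counts, all on its known accession, and its 2 other accessions were at 0. The FPKM in replicate 1 was 60.0 for Klf6 (54.3 to 66.2) and 24.9 for Klf4 (20.5 to 29.8). Klf6 thus lay above Klf4 beyond counting error, while its interval overlapped that of Jund and of Atf3.
Ordered by FPKM in replicate 1, the genes ran Junb, Jun, Fos and Egr1, then Klf6, Jund and Atf3, then Klf4 and Fosl2. The place of Fosl2 rests on a length that includes retained-intron bases without counts. When length was limited to countable bases, Jund (107) moved above Klf6 (78.8) and Fos (387) drew near to Jun (414), and the order of the others was kept. All 9 lay above the FPKM of at least 86.1% of the protein-coding genes in replicate 1, of which 52.6% were at 0. This share has the same limit as the ranks above, since genes differ in countable bases. The plot of FPKM by length compares both definitions.

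**Figure D2:**
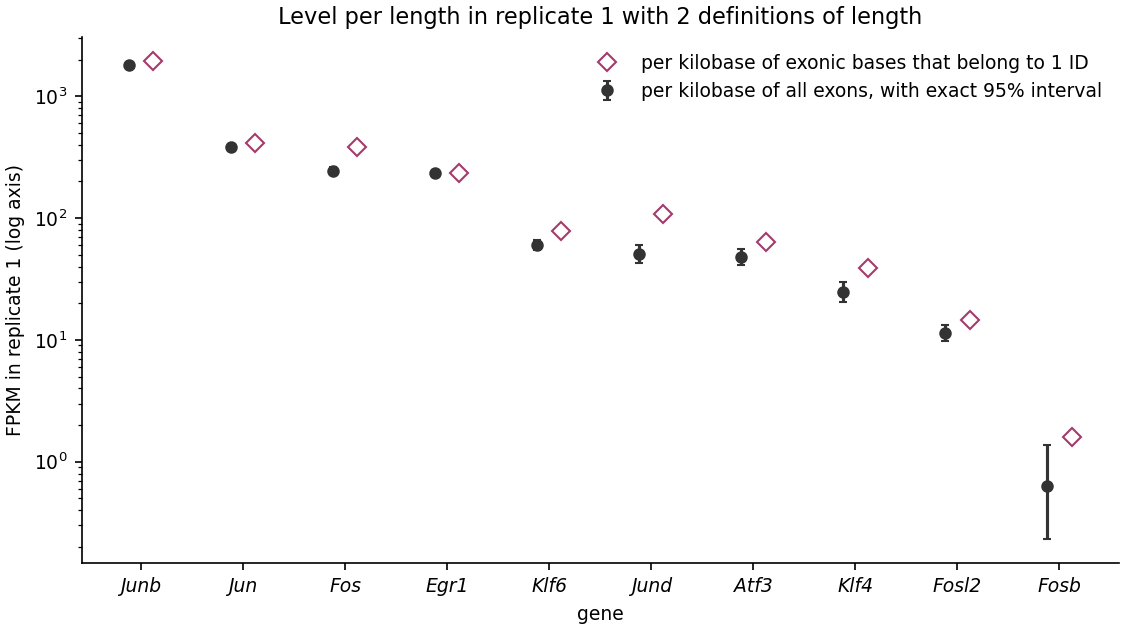
FPKM of the 10 genes in replicate 1 on a log axis, per kilobase of all annotated exons (filled circles, exact 95% interval for counting error) and per kilobase of exonic bases that belong to a single ID (open diamonds). Junb lies highest under both at 1813 and 1961, Jund rises from 51.0 to 107, and the point of Fosb rests on 6 counts of a retained intron.

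Whether both libraries gave the same picture was examined by scaling the counts of replicate 1 to the total of replicate 2. This gave 95.5 counts for the 10 genes together, where 4 were observed. The summed level was 23.9-fold higher in replicate 1 (exact 95% interval of the ratio 9.33 to 87.7). This interval compares 2 libraries of 1 condition and is no test of a treatment. Without Junb the ratio was 10.9 (4.26 to 40.0), and with every accession that could lie at one of the loci it was 11.4 (6.01 to 24.98). The counts added for the latter all lay at the Egr1 locus, in replicate 1 on 1 accession known as that of another gene, Etf1. In replicate 2 they too lay on known accessions of other genes. That ratio is therefore no separate estimate for the 10 genes. The gap was wider with edgeR TMM library sizes, 23043 against 107 CPM, and with DESeq2 size factors, 21199 against 116 CPM. Both methods set their factors by the IDs counted in both libraries, and replicate 2 held 12442 counts on 4259 IDs. The DESeq2 factors were 4 and 0.25. Factors are coarse at such counts, so the wider gap adds no evidence on the size of the difference. Junb scaled to 51.9 counts and was observed at 0, which is at least 17.3-fold higher in replicate 1 when 3 counts are taken as the limit in replicate 2. Jun scaled to 15.2 counts and was observed at 0 (at least 5.08-fold). Both bounds are no 95% limits, since the interval of 0 counts in replicate 2 reaches 296 CPM, above the 241 CPM of 3 counts. Egr1 scaled to 13.2 counts and was observed at 3, a ratio of 4.40 (1.502 to 21.4). Fos scaled to 7.19 counts and was observed at 1, a ratio of 7.19 (1.29 to 284). Klf6 scaled to 3.28 counts and was observed at 0, and Fosl2, Atf3, Jund, Klf4 and Fosb scaled to at most 1.38 counts, so a level like that of replicate 1 was not detectable for these 5 in replicate 2.
Genes counted in one library were often low in the other, whichever library they were chosen by. Of the 520 protein-coding genes that scaled to 3 counts or more, 61.0% were at 0 in replicate 2 and 504 lay below their scaled count. Conversely, of the 578 with at least 3 counts in replicate 2, 533 had a lower CPM in replicate 1. Each choice favours its own direction, so neither count compares the libraries as a whole. Of the 10 genes, 5 scaled to 3 counts or more and 3 of these were at 0 in replicate 2, a share near that background. This background is not matched for level. Of the 8 other protein-coding genes with at least the replicate 1 counts of Junb, 0 were at 0 in replicate 2, unlike Junb. Of the 68 with at least those of Jun, 33 were at 0. The immediate early gene Ier3, just below the cut for Junb at 6266 counts, scaled to 51.4 counts and was also at 0 in replicate 2. Why Junb and Ier3 were at 0 there was not tested. The plot of scaled and observed counts shows these pairs.

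**Figure D3:**
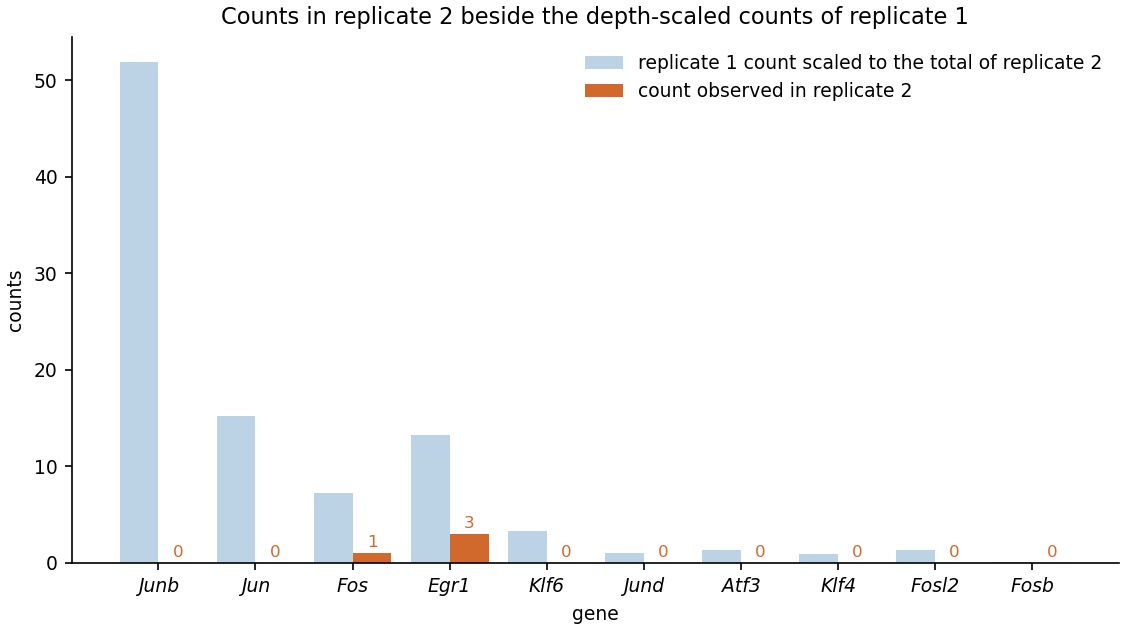
Counts of the 10 genes in replicate 2 (orange bars, number printed) beside the counts of replicate 1 scaled to the total of replicate 2 (pale blue bars). Junb has the largest gap, with 51.9 scaled and 0 observed counts, and Egr1 and Fos are the 2 genes with any count in replicate 2.

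Other genes of the same response were read from a list of 33. Of these, 22 had at least 3 counts in replicate 1, as did 36.1% of the protein-coding genes. A further 2 had 1 or 2 counts there, and 9 were at 0. Among 12 further immediate early genes, 8 reached 3 counts. Ier3, a short-lived regulator of survival induced by stress, had 6266 counts in replicate 1 and 0 in replicate 2, and its FPKM of 3652 in replicate 1 was above that of Junb. Ier2, a nuclear protein induced by growth factors, had 2286 and 1 counts, an FPKM of 990 in replicate 1. Both genes thus had far more counts in replicate 1 than Fos. The antiproliferative gene Btg2 had 205 and 2 counts (FPKM 49.3 in replicate 1), and the orphan receptor gene Nr4a1 had 83 and 1 (FPKM 15.6). Ier5 had 150 counts, Ccn1 84, Dusp1, a MAP kinase phosphatase gene, 20, and Myc 3 in replicate 1, with 0 in replicate 2. Zfp36 had 2 counts in replicate 1. Egr2, Egr3 and Ccn2 were at 0 in both libraries. For these 3, between 339 and 466 exonic bases are countable, so their zeros say little.
All 7 further KLF genes reached 3 counts in replicate 1, against 36.1% of the protein-coding genes. Klf2, a KLF gene known from endothelium and lymphocytes, had 209 counts in replicate 1 (FPKM 74.6) and 6 in replicate 2 (FPKM 261), the most among the 33 genes in replicate 2. Klf9 had 287 counts, Klf5 had 262, Klf13 had 217 and Klf3 had 165 in replicate 1, with FPKM values from 9.67 for Klf3 to 39.3 for Klf9. Klf7 had 24 counts and Klf10 had 4.
Of the 8 AP-1 partners, 5 were at 0 in replicate 1, as were 52.6% of the protein-coding genes. Jdp2, which encodes a repressor that pairs with Jun, had 45 counts in replicate 1 and Ddit3, a stress-induced C/EBP family gene, had 33, with 0 in replicate 2. Atf2 had 1 count, and Fosl1, Batf, Batf2, Batf3 and Atf4 were at 0. Of those 5, Batf had 1325 of 1406 exonic bases countable, and the other 4 had 344 to 872. Upstream of these genes, the transcription factor gene Creb1 had 101 counts, the kinase gene Mapk8 had 48, and Elk1 and Srf, which act together at serum response elements, had 8 and 3 in replicate 1. Mapk3 was at 0 with 457 of 2257 bases countable. The median FPKM in replicate 1 was 55.5 for the 10 genes, 19.0 for the further KLF genes, 9.79 for the further immediate early genes and 0 for the AP-1 partners, as it was for all 13664 protein-coding genes.

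**Figure D4:**
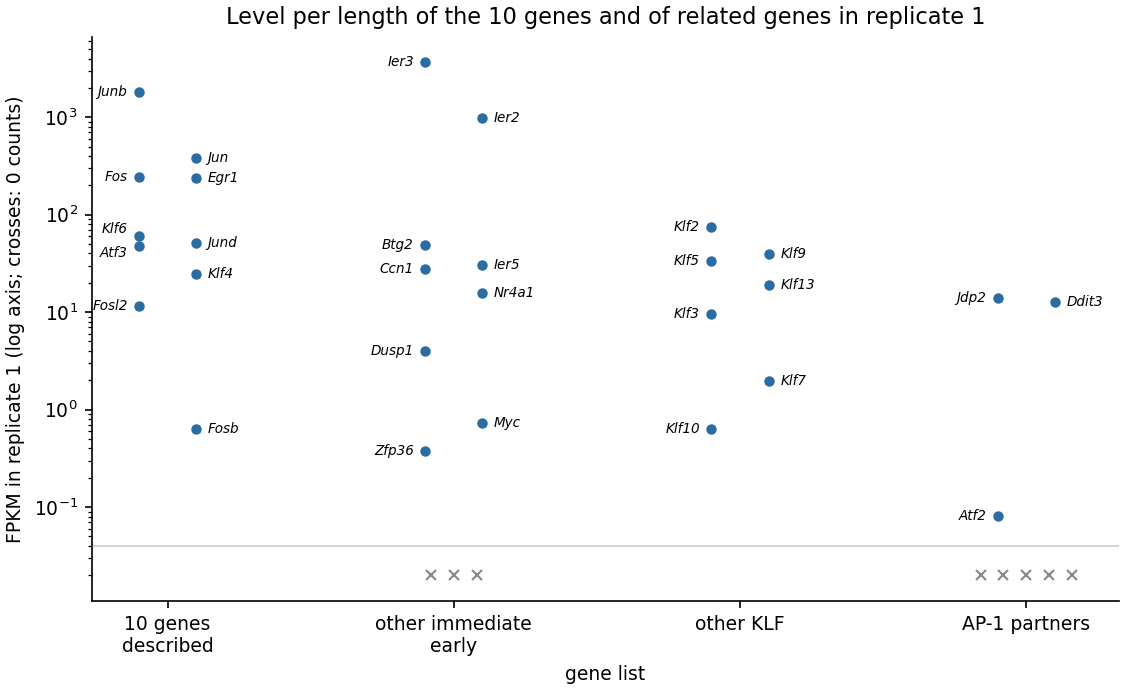
FPKM in replicate 1 on a log axis for the 10 genes and for 3 lists of related genes, each point a gene; crosses below the grey line are genes at 0 counts. Ier3 and Ier2 lie in the range of Junb and Jun or above it, while 5 of 8 AP-1 partners are at 0.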

How the data were processed

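Each of the 2 deposited tables holds raw counts, whole numbers given for every ID, with no normalization or pooling by the authors. Per the labels, processing used FastQC, Trim Galore, HISAT2 2.2.1 and featureCounts on mm10, whereas the paper's methods name TopHat and Cufflinks; the gene annotation is not given in the sources used here. The files held 129311 IDs, 76066 Ensembl transcript IDs and 53245 protein accessions. GENCODE M21 named 75122 Ensembl IDs. The files do not pair accessions with genes. IDs follow genome position, so an accession was given to the gene whose unlisted coding transcripts start between its annotated neighbours. With 50% of the Ensembl IDs hidden (37561), 21530 could be placed in 1 gene and 9 of these fell in a wrong one. Known accessions of 43 genes all had their gene among the candidates, 37 as the only one. For Jun, Junb, Egr1 and Klf6 the known accession was not listed, and the gene rests on row order. The plan had been to leave such accessions out; all IDs of a gene were summed instead, as the choice of genes requires.

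FPKM was computed as counts per kilobase of the union of exons and per 1000000 counts. Shares, ranks and medians over the protein-coding genes or the lists were not corrected for countable bases. Stretches of 31 bases shared with another gene made up 50.1% for Jund, 6.51% for Junb, 6.39% for Jun and 2.00% for Klf4, and at most 0.0726% for the others. The protein-coding genes compared are those that are no candidate of an accession with several candidate genes; Egr1 and Atf3, each a candidate of such an accession, were kept. Members and lists were chosen with earlier results of these data known. No test between groups was run, since both libraries belong to 1 condition and the labels do not say whether they came from separate cultures. The related genes described are those with at least 3 counts in replicate 1 or any in replicate 2, plus those at 0 or below 3, given after their values were seen; 1 gene of the upstream list is not reported here. Python 3.11.15, scipy 1.17.1, pandas 2.3.3, edgeR 4.0.16 and DESeq2 1.42.0 (for scaling factors only) were used.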

Additional observations from a re-analysis of the deposited data

How the results depend on the processing

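The direction between the libraries, higher in replicate 1, was kept under each scaling, though the TMM and DESeq2 factors rest only on IDs counted in both libraries. The summed level (mean of both libraries 4000.2 CPM) became 11575 with edgeR TMM sizes and 10658 with DESeq2 size factors, and ranged from 321 to 7679 without one replicate. In replicate 1 it moved from 7679 CPM to 8713 without mitochondrial counts, 23043 with TMM, 21199 with DESeq2 size factors, 7.25 with Ensembl IDs only, 8262 with every accession that could lie at a locus (all of the gain on 1 accession known as Etf1) and 960 without accessions named by row order alone, an alternative chosen after seeing the data. Without Junb, also chosen after seeing the data, it was 3507. In replicate 2 it was 0 with Ensembl IDs only and 80.4 without accessions named by row order alone. With every accession that could lie at a locus it was 723, all of the gain at the Egr1 locus on known accessions of other genes. Genes with at least 3 counts in either library numbered 10, between 1 and 10 without one replicate and 2 with Ensembl IDs only, also 2 in replicate 1. In replicate 2 the count of 1 became 2 at 1 count or more, 0 at 10 or more, 0 with Ensembl IDs only and 0 without accessions named by row order alone. The levels of Jun, Junb, Egr1 and Klf6 thus depend on that naming. No paired analysis was possible because only 1 group was sequenced. Depth of replicate 2 (12442 counts) limits all comparisons with it.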
